A study of Mus musculus with 4 samples.

Results

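Immune receptors that pull in opposite directions, and the proteins that carry their signals, were measured by RNA sequencing in mouse microglia, the resident macrophages of the brain. The set held 43 of the 56832 genes in the count files and was chosen by name: Fc receptors, TREM and CD300 families, inhibitory receptors, ITAM adaptors, and their proximal kinases and phosphatases. All 43 were found. The only group was cultured microglia (4 libraries, replicates 1 to 4) taken from primary glial cultures of C57BL/6 mice labelled female, with no genotype or treatment given. Cells were detached with trypsin and sorted by flow cytometry. The sources used here do not state the gate, the age of the animals, or if the replicates are separate cultures or animals, so SDs and p-values measure only the spread between these libraries, which can be technical. Cultured blood progenitors and their co-cultures with glia, the other groups of the series, were not analysed here, and nothing was compared between groups.

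Activating receptors of this set mostly have short tails and sit beside an adaptor, Tyrobp or Fcer1g, whose ITAM (a motif with a pair of tyrosines) is phosphorylated by Src family kinases and then binds the kinase Syk. Inhibitory receptors carry tyrosine motifs of another kind, most often ITIMs, which bring phosphatases such as Ptpn6 and Inpp5d to the membrane. Many receptors form pairs, in which related proteins with like outer parts send opposite signals, and the balance between them sets how readily a macrophage takes up particles or is activated. In microglia, Trem2 with Tyrobp and Sirpa with its ligand Cd47 are among the best studied.

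Promoter windows were available for 33 of the 43 genes, in the RefSeq set of build GRCm38.p6, from 250 bases before to 50 bases after each annotated start. Of these genes 14 (42.4%) held the letters GAGGAAG on either strand, against 15.4% of all 27025 genes with a window. The letters are of the purine-rich kind bound by PU.1, the macrophage transcription factor encoded by Spi1. The overlapping letters AGGAAGT were in 13 of the 33 (39.4%), against 10.7% of all genes, and 8 member genes held both in 1 window. The longer run GAGGAAGT was in 18.2% of member genes, against 3.69% of all. It contains both shorter runs, so its 6 member genes are counted in each share above and among those 8. Other letter runs showed no such excess: TATAAA was in 9.09% of member genes against 15.7% of all, TGACTCA in 3.03% against 5.95%, and GGGACTTT in 0% against 1.61%. The 6 runs were chosen with results of these data known, a gene counted once if any of its windows held the letters, and a match describes letters, not binding.

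The match stood close to the start in the 4 windows shown here, which belong to a pair of abundant activating receptors, Trem2 (chr17:48346151-48346450, + strand) and Fcgr3 (chr1:171059345-171059644, - strand, 1 of 2 annotated starts), to Fcgr4 (chr1:171018676-171018975, + strand), a low neighbour of Fcgr3, and to the inhibitory phosphatase Inpp5d (chr1:87620062-87620361, + strand). Capitals mark GAGGAAG or, on the other strand, CTTCCTC, and each sequence runs along its gene's strand.
Trem2: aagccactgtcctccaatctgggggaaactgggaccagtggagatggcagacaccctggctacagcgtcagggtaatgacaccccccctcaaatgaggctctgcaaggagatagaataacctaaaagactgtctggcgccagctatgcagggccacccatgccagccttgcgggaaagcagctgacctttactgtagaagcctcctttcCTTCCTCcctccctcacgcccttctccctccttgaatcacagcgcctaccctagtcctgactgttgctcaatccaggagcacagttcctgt
Fcgr3: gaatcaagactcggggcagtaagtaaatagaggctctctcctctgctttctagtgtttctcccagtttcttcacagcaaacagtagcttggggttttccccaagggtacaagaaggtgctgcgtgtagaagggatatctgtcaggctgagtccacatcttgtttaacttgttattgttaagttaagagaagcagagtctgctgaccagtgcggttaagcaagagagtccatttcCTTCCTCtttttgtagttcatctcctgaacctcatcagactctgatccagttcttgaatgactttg
Fcgr4: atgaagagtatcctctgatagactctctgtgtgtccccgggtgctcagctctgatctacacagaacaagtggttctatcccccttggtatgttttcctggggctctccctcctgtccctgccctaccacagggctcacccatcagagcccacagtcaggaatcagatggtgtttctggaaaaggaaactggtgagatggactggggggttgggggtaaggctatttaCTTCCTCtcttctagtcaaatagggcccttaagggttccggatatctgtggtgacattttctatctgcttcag
Inpp5d: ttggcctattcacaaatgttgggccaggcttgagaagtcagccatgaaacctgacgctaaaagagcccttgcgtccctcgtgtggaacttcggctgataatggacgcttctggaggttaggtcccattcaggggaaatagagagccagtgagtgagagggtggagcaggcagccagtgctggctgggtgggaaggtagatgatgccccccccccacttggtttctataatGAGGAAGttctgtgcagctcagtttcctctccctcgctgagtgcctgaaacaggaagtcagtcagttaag
The match began 41, 16, 23 and 20 bases before the start in Trem2, Fcgr3, Fcgr4 and Inpp5d. These genes were picked by name, and positions were not taken in the other windows, of members or of all genes. By role, 5 of 10 activating receptors with a window and 5 of 6 inhibitory receptors held GAGGAAG. The letters were less frequent among the signalling genes: 2 of 4 kinases, 1 of 3 phosphatases, 1 of 5 downstream activating genes and 0 of 2 restraining adaptors. The 1 ITAM adaptor with a window lacked them, as did the 2 other receptors or ligands. Nearly all genes with a window, 13 of 14 with the letters and 18 of 19 without, reached 1 CPM in each library (CPM, gene counts after every library is brought to the same total), so the letters could not be set against detection. Fcgr3 and Fcgr4, both with a match, averaged 1028 and 22.4 TPM (counts divided by the length of a gene's merged exons, then brought to the same total).

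The libraries held 23212183 to 28469813 gene counts. Where a gene had 0 counts, a level of 3 counts (0.105 to 0.129 CPM) remains possible from counting error alone. All 10 microglia and macrophage markers reached 1 CPM in every library, Csf1r, Cx3cr1 and Tmem119 among them. Sall1 was the lowest of the 10, at 13.1 to 15.3 CPM. P2ry12, at 164 to 249 CPM, passed the test of spread between libraries described further on (edgeR adjusted p = 0.00102). Lymphocyte markers summed to 0.141 to 0.555 CPM, with 5 of 10 at 0. Mast cell and basophil markers summed to 0.888 to 2.22 CPM with 7 of 8 at 0, and monocyte markers to 3.33 to 4.39 CPM with 4 of 7 at 0. Neutrophil markers summed to 69.6 to 78.8 CPM, nearly all of it Csf3r, while Elane, Mpo, Ly6g, S100a9, Camp and Ngp were at 0. Markers of other brain cells summed higher. Astrocyte markers came to 300 to 506 CPM, oligodendrocyte markers to 224 to 241 CPM, and endothelial, mural and fibroblast markers to 145 to 180 CPM. Mbp (103 to 115 CPM) and Cnp (102 to 111 CPM) led the oligodendrocyte sum, while Mog was at 0. Flt1 (67.9 to 77.0 CPM) and Acta2 (42.8 to 73.5 CPM) led the last list. Its other endothelial genes were low: Pecam1 at 0.345 to 0.629 CPM, Cdh5 at 0.963 to 1.15 CPM, and Cldn5 with counts in replicate 1 only. Acta2 also passed the test of spread (edgeR adjusted p = 0.0041). The cells are labelled female, yet beside Xist (253 to 341 CPM) Y-linked genes had counts in all 4 libraries. Ddx3y was at 30 to 41.5 CPM, Kdm5d at 19.6 to 21.2, Eif2s3y at 16.3 to 20.8 and Uty at 9.48 to 12.1. No library lacked these transcripts, so no result could be given without them, and their source was not tested. Each pair of libraries differed by more than counting noise (chi-square per degree of freedom 5.17 to 13.6).

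Of the 43 genes, 39 reached 1 CPM in each library. A mean of 100 TPM or above was found for 20 (46.5%), against 12.7% of the 12503 genes that passed an abundance filter and had a length. The median over the 43 was 89.5 TPM ± 1.14 (SD, n = 4 here and below), against 17.9 ± 0.184 over those genes. Together the set summed to 15435, 16085, 16176 and 16214 TPM in replicates 1 to 4. The ITAM adaptors alone made up 7495 ± 368 of it, the activating receptors 2688 ± 70.2 and the inhibitory receptors 2056 ± 22.1. Within 1 role, neighbours in the order of levels overlapped in 4 cases: Cd300ld with Cd300lb, Treml4 with Trem3, Cd200r1 with Pilra, and Syk with Btk. In such bulk samples, fewer cells that express a gene and less RNA per cell cannot be told apart.

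**Figure D1:**
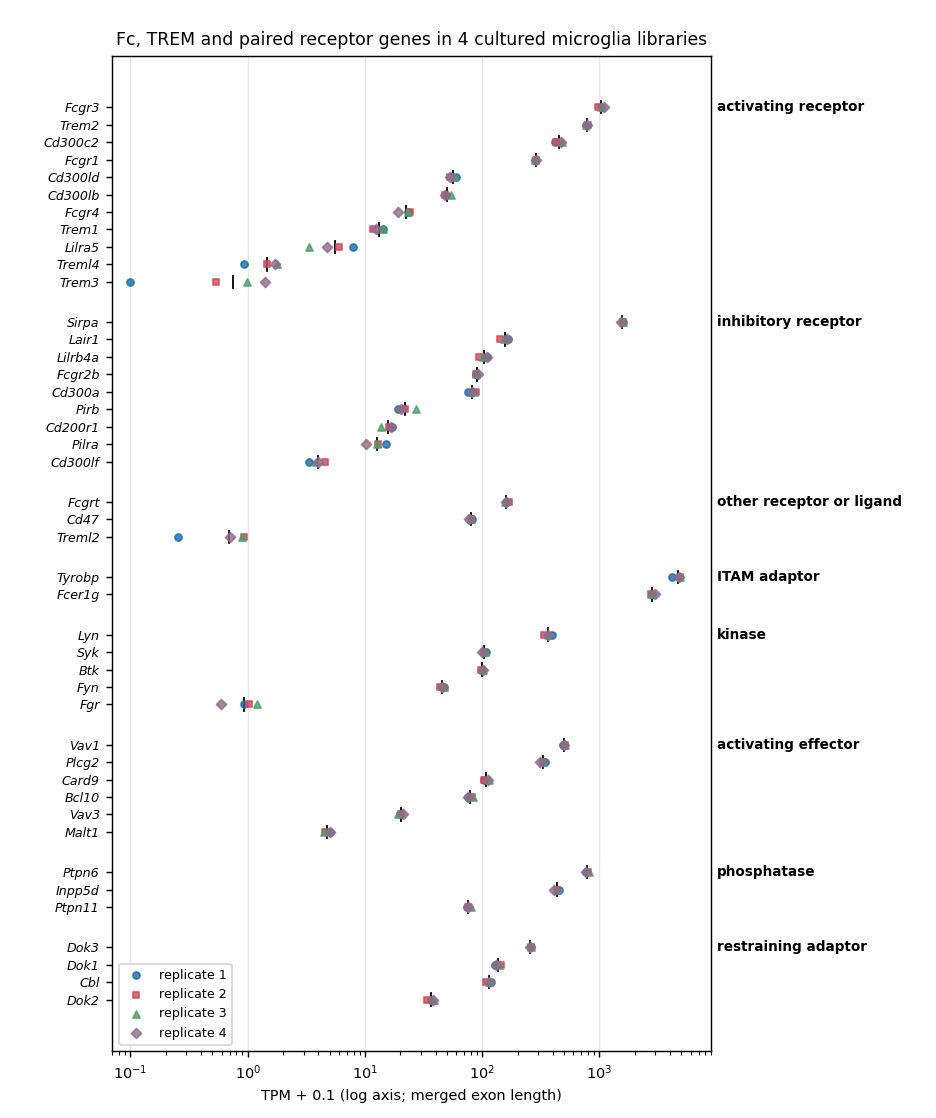
TPM + 0.1 (log axis) of the 43 genes, grouped by role and ordered by mean; each point is 1 of 4 libraries and the black tick is the mean. Tyrobp (4672 TPM) and Fcer1g (2823) stand highest, and Treml2, Trem3 and Fgr lie under 1 TPM on average.

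Among the Fc receptors for IgG the activating members held most of the transcripts. Fcgr3, a low-affinity activating receptor, was at 1021, 965, 1038 and 1090 TPM in replicates 1 to 4. Fcgr1, the high-affinity receptor, was at 284, 288, 283 and 286 TPM, and Fcgr4, which binds some IgG subclasses in mice, at 23.2, 23.99, 23.2 and 19.1 TPM. The ranges of these 3 genes did not overlap. Fcgr2b, the only inhibitory member and the one with an ITIM, was at 88.9, 89.0, 89.1 and 91.2 TPM, below Fcgr3 and Fcgr1 and above Fcgr4 in every library. Fcgr3 made up 72.1% ± 1.12 of the summed TPM of the 4 genes, Fcgr1 20.02% ± 0.781, Fcgr2b 6.29% ± 0.163 and Fcgr4 1.57% ± 0.201.

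The summed activating Fc receptors stood above Fcgr2b by 3.90 ± 0.0396 on the log2 scale, a ratio of 14.9 with a range over libraries of 14.4 to 15.3. The ratio was 11.2 when length was taken from the principal transcript in place of all exons; Fcgr2b has 5790 merged exon bases and 3544 in its principal transcript. Fcgr3 alone stood above Fcgr2b by 3.52 ± 0.0594 (log2 TPM ratio), and was higher in 4 of 4 libraries (p = 0.125 by an exact sign-flip permutation test, two-sided). That is the smallest p that 4 libraries can give, so none of the 5 single-gene ratios tested this way could pass 0.05, with or without adjustment over the 5. On CPM without length the log2 ratios were 1.78 for Fcgr3 over Fcgr2b and 2.30 for the summed activating receptors. Fcgr2b, Fcgr4 and Fcgr3 lie next to each other on chromosome 1 in RefSeq with 0 protein-coding genes between them, and Fcgr2b and Fcgr3 are close in sequence, so the split of their reads is uncertain. Fcgrt, the neonatal Fc receptor that recycles IgG inside cells and does not signal through these motifs, was at 158, 170, 156 and 158 TPM. It was the highest in replicate 2 and nearly level in the other libraries.

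In the TREM family 1 gene made up almost all of the signal. Trem2, a receptor for lipids and lipoproteins that works through Tyrobp, was at 765, 796, 773 and 780 TPM, or 98.0% ± 0.185 of the family's summed TPM. Trem1, which amplifies inflammatory responses in neutrophils and monocytes, was at 14.2, 11.6, 14.1 and 12.4 TPM. The others were near the floor. Trem3, a receptor known from mice, had 0, 3, 6 and 11 counts (0, 0.435, 0.878 and 1.31 TPM). Treml4, known to bind dead cells, had 13, 19, 23 and 27 counts, and Treml2, set apart here from the activating members, had 6, 28, 27 and 25. Each of the 3 was lowest in replicate 1. Trem1, Trem3 and Treml4 are neighbours on chromosome 17 in RefSeq with 0 protein-coding genes between them; Treml2 follows and is parted from Trem2 by 1 gene. These neighbours of Trem2 averaged between 0.594 TPM (Treml2) and 13.1 TPM (Trem1).

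Trem2 is the gene whose level depends most on the choice of length among the activating receptors. Its merged exons come to 4946 bases and its principal transcript to 1088, so that the same counts give 778 ± 13.4 TPM on the first and 2407 TPM on the second. On the second scale Trem2 stood above Fcgr3 (902 TPM) and took 61.2% ± 1.19 of the summed activating receptors, against 29.0% ± 1.01 on the first. Genes of the same length under both settings were 0.680 times as high on the second scale, as Fcgr1 was.

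Of the CD300 receptors, which bind lipids and are activating or inhibitory by member, the activating Cd300c2 stood highest. It was at 415, 425, 477 and 473 TPM, or 69.9% ± 1.48 of the family. Cd300ld and Cd300lb, also coupled to ITAM adaptors, averaged 55.9 ± 3.45 and 49.9 ± 2.58 TPM. Cd300lb was at 49.2, 48.3, 53.7 and 48.3 TPM, highest in replicate 3. Cd300a, an inhibitory receptor with ITIMs that binds lipids of dying cells, was at 75.8, 87.8, 84.6 and 81.5 TPM, above both in every library. Cd300lf, which has ITIMs and can also signal positively, was the lowest at 3.24, 4.45, 3.76 and 3.90 TPM. The activating members stood above the inhibitory ones by 2.68 ± 0.112 (log2 of summed TPM), a ratio of 6.42 with a range of 5.71 in replicate 2 to 6.72. On CPM without length the log2 ratio was 1.08. Cd300a and Cd300lb are adjacent on chromosome 11 in RefSeq, as are Cd300ld and Cd300c2. Other genes of this cluster were lower: Cd300ld3, named after its values were seen, was at 6.22 CPM ± 2.78, against 43.6 ± 2.35 for Cd300ld, and had its lowest value, 2.41 CPM, in replicate 1.

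The remaining activating receptor, Lilra5, whose human counterpart couples to the Fc receptor gamma chain, was at 7.79, 5.95, 3.24 and 4.65 TPM. Its counts were 129, 87, 47 and 83, and it had the widest spread of any tested member, an SD of 0.537 on the log2 CPM scale.

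Inhibitory receptors were led by Sirpa, which limits phagocytosis when it binds Cd47 on another cell. It was at 1586, 1579, 1580 and 1535 TPM and made up 76.3% ± 0.645 of the summed inhibitory receptors, or 62.3% ± 1.301 with principal transcripts. The next were Lair1, a collagen receptor, at 167, 143, 154 and 162 TPM, and Lilrb4a, an ITIM receptor of the leukocyte immunoglobulin-like family, at 110, 93.4, 101 and 110 TPM. Lair1 stood above Lilrb4a in every library, and Lilrb4a above Fcgr2b. Both were higher with principal transcripts, at 319 TPM (Lair1) and 267 TPM (Lilrb4a), as was Cd300lf at 7.21 TPM. Pirb, a receptor for MHC class I, averaged 22.0 ± 3.67 TPM and was highest, at 27.3, in replicate 3. Cd200r1, which restrains myeloid cells through Dok adaptors, was at 16.8, 15.9, 13.5 and 16.7 TPM, and Pilra, which binds sialylated proteins, at 14.9, 12.8, 12.5 and 10.1 TPM. The ranges of Cd200r1 and Pilra overlapped. Among activating receptors 9 of 11 reached 1 CPM in each library, against 9 of 9 inhibitory receptors.

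Some of these values are uncertain because of close copies or overlapping genes. Lilrb4b, a close relative of Lilrb4a listed beside it, was at 103 CPM ± 7.79 against 160 ± 11.8 for Lilrb4a, and other annotated genes cover 35.9% of the exon bases of Lilrb4a. Genes of the Pira group, close relatives of Pirb, were near 0: Pira2 had 46 counts over the 4 libraries and Pirb 2938. Zcwpw1, on the opposite strand, covers 15.2% of the exon bases of Pilra, and no source used here states if the counting used strand.

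Cd47, the ligand of Sirpa, was itself expressed at 81.5, 79.6, 80.8 and 77.6 TPM. Sirpa stood above it by 4.30 ± 0.0136 (log2 TPM ratio), a ratio of 19.7, and was higher in all 4 libraries (exact sign-flip permutation p = 0.125, the smallest possible). With principal transcripts the ratio was 5.08; Cd47 has 6276 merged exon bases and 1316 in its principal transcript. Among ligands of other receptors, Apoe, a lipoprotein bound by Trem2, was at 50092 TPM ± 1678, and C1qa, a chain of the complement protein bound by Lair1, at 12624 ± 261. Lgals3, a lectin reported to bind Trem2, was at 401 ± 33.7 and Fn1, fibronectin, at 57.1 ± 6.997. Cd200, the ligand of Cd200r1, was at 5.08 ± 0.682 TPM, and Pglyrp1, a ligand of Trem1, had 1 count in replicate 4 and 0 in the others.

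The 2 sides were then compared as groups. The median of the 11 activating receptors was 49.9 TPM ± 2.58 and that of the 9 inhibitory receptors 82.4 ± 5.11. In every library these medians were the levels of single genes, Cd300lb and Cd300a, so their difference compares those genes. On the log2(TPM + 1) scale the activating minus the inhibitory median was -0.61, -0.85, -0.65 and -0.74 in replicates 1 to 4. Their summed TPM went the other way in every library. The sums were 2640, 2620, 2726 and 2768 TPM for the activating receptors and 2081, 2047, 2066 and 2031 TPM for the inhibitory ones, a log2 ratio of 0.39 ± 0.0472. With all members kept, the activating receptors had the lower median and the higher sum. Among the 99 pairs of 1 activating and 1 inhibitory receptor, the activating gene was higher in all libraries in 44, the inhibitory gene in 51, and the order differed between libraries in 4. No p is given for these group values, because the members were chosen with earlier results known.

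Both group values depended on the settings. With the genes that have close copies left out, Fcgr3, Fcgr2b, Lilrb4a and Pirb, the difference of medians was -0.11 ± 0.134, smaller than its SD over libraries. With Cd300ld, Sirpa, Pilra and Cd200r1, which also have listed relatives, left out as well, it was -1.84 ± 0.152. That setting left only Lair1, Cd300a and Cd300lf on the inhibitory side, so the median there was again the level of Cd300a alone. Summed counts without length put the activating side below the inhibitory side, a log2 ratio of -0.53. With principal transcripts the sums stood at a log2 ratio of 0.90.

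**Figure D2:**
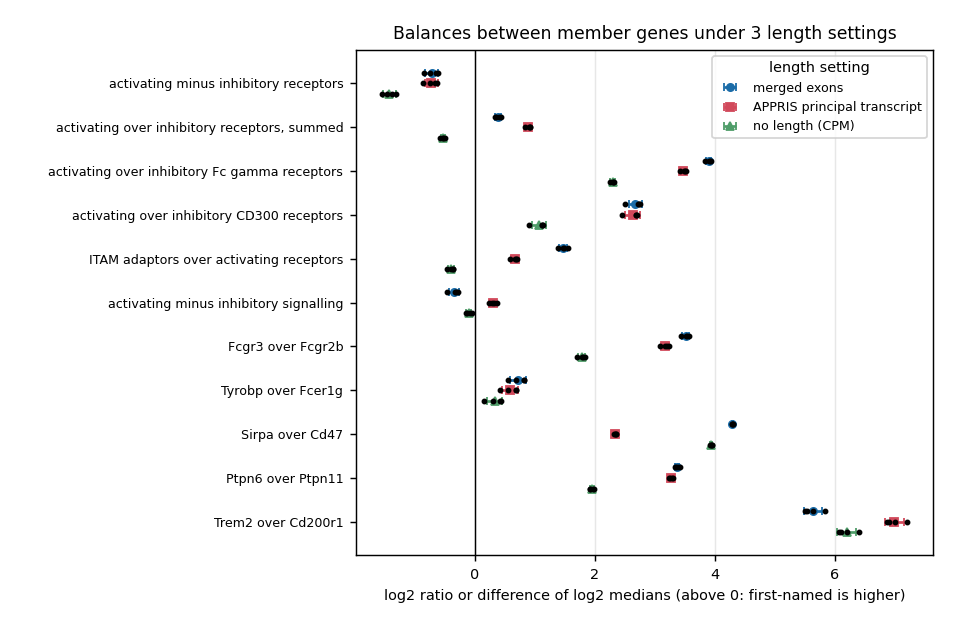
Log2 ratios, or differences of log2 medians, for 11 balances between member genes; coloured symbols are means over 4 libraries with SD bars under 3 length settings, and black points are single libraries. The Fc gamma (3.90) and CD300 (2.68) balances lie right of 0 in all settings, whereas the summed receptors, the adaptors over receptors and the signalling genes cross 0 in at least 1.

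The adaptors were the most abundant genes of the set. Tyrobp, the adaptor of Trem2, was at 4136, 4899, 4860 and 4794 TPM and Fcer1g, the adaptor of the Fc receptors, at 2815, 2777, 2739 and 2960. Tyrobp was lowest in replicate 1 and level in the others, and its range did not overlap that of Fcer1g. It stood above Fcer1g by 0.72 ± 0.128 (log2 TPM ratio), a ratio of 1.65, and was higher in all 4 libraries (exact sign-flip permutation p = 0.125, the smallest possible). Both together were 2.79 times the summed activating receptors, with a range of 2.63 to 2.93. That ratio was 1.59 with principal transcripts, and on CPM without length the adaptors lay below the receptors (log2 ratio -0.39).

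In replicate 1, where Tyrobp was lowest, the 14 immediate-early genes summed to 2073 CPM, against 1156 to 1465 in the other libraries, and the 10 astrocyte markers to 300 CPM against 412 to 506. Of these lists 12 immediate-early and 3 astrocyte genes passed the test of spread between libraries described further on. Their part in the Tyrobp value was not tested.

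Of the kinases, Lyn, the Src family member that phosphorylates both ITAMs and ITIMs, was the highest at 396, 334, 366 and 361 TPM. It made up 88.7% ± 0.421 of the 3 Src family genes of the set. Fyn averaged 45.6 ± 1.74 TPM, while Fgr was low, at 0.824, 0.933, 1.09 and 0.49 TPM (16 to 29 counts). Syk, which binds phosphorylated ITAMs, was at 107, 104, 106 and 100 TPM and Btk, a Tec family kinase that activates Plcg2, at 99.7, 97.2, 101 and 101 TPM. The ranges of Syk and Btk overlapped.

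The phosphatases were abundant. Ptpn6, which removes phosphates from activated receptors and kinases, was at 774, 803, 810 and 768 TPM. Inpp5d, which degrades the lipid messenger made by PI3 kinase, was at 448, 437, 432 and 413 TPM. Ptpn11, a relative of Ptpn6 that often promotes signalling, was at 73.4, 75.2, 79.9 and 75.3 TPM. Their ranges did not overlap. Ptpn6 stood above Ptpn11 by 3.38 ± 0.0358 (log2 TPM ratio), a ratio of 10.4, and was higher in all 4 libraries (exact sign-flip permutation p = 0.125, the smallest possible). On CPM without length the log2 ratio was 1.96.

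Downstream activating genes spanned a wide range. Vav1, a guanine nucleotide exchange factor, was at 486, 512, 505 and 500 TPM, and its relative Vav3 averaged 20.02 ± 0.874. Plcg2, the phospholipase that raises calcium, was at 342, 332, 329 and 311 TPM. In the complex that links Syk to NF-kB, Card9 was at 104, 103, 115 and 112 TPM and Bcl10 averaged 78.8 ± 4.34 (125 TPM with principal transcripts). Malt1, the protease of that complex, was lowest at 4.96, 4.48, 4.37 and 4.90 TPM. Its merged exons come to 18040 bases, and with its principal transcript of 5331 bases it was at 10.8 TPM, still the lowest of the 6.

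The restraining adaptors were led by Dok3, which dampens signalling from ITAM receptors, at 259, 258, 258 and 255 TPM. Dok1, which restrains Ras signalling, was at 128, 143, 138 and 131 TPM, Cbl, a ubiquitin ligase that marks activated kinases for breakdown, at 119, 107, 115 and 115, and Dok2, the adaptor of Cd200r1, at 36.5, 33.6, 38.3 and 37.7. Dok3 stood above Dok1 and Dok2 in every library. The median of the activating signalling genes (both adaptors, Syk, Btk and the 6 downstream genes) lay below that of the restraining ones (3 phosphatases, 3 Dok genes and Cbl) in each library, with a difference of -0.34 ± 0.0860 in log2(TPM + 1). The direction turned with principal transcripts, to 0.31, with the longest transcript, to 0.29, and with means in place of medians, to 0.03. These values depend on which genes were counted as restraining. Ptpn11 was so counted although it often promotes signalling. With it left out, a choice made after seeing the data, the difference was -0.81 ± 0.0559. It was then below 0 with principal transcripts (-0.38), the longest transcript (-0.20) and means (-0.16) too. The change in medians is not particular to Ptpn11. Dok1 was the median gene, and leaving out Cbl or Dok2, also below Dok1, moves the median alike.

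Trem2 and Cd200r1, an activating and an inhibitory receptor both studied in microglia, stood far apart. Trem2 stood above Cd200r1 by 5.64 ± 0.151 (log2 TPM ratio), a ratio of 49.7, and was higher in all 4 libraries (exact sign-flip permutation p = 0.125, the smallest possible). With principal transcripts the ratio was 128.

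Relatives and partners outside the set gave a context. Of 31 related receptor genes, 2 symbols were not matched and 27 had a length. Of these 27, 7 reached 1 CPM in each library, 18 were under 1 TPM and 8 were at 0 counts throughout. The highest were the Fc receptor-like gene Fcrls at 5346 TPM ± 18.02, the inhibitory receptor Milr1 at 136 ± 8.62, Clec5a, a lectin that uses Tyrobp, at 80.4 ± 11.04 and Fcrl1 at 20.4 ± 1.17. Fcer1a, the IgE-binding chain, and the natural killer receptors Ncr1 and Klrk1 were among those at 0. Of 27 further activating signalling genes 23 reached 1 CPM in each library, and the median level was 75.98 ± 3.27 TPM. Pik3ap1 (476 ± 14.5), Grb2 (403 ± 20.4) and Ptprj (258 ± 6.11) were among the highest. Of 14 further restraining genes 12 reached 1 CPM in each library, and the median level was 38.4 ± 3.17 TPM. Csk, which inactivates Src family kinases, was at 280 ± 9.08, Dgkz at 192 ± 6.26, Inppl1, a relative of Inpp5d, at 124 ± 7.81 and Ubash3b at 85.5 ± 3.21, while Ubash3a was at 0.

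The last question was whether the libraries differed. For each gene the deviance from 1 common mean was tested against the spread of genes of like abundance in edgeR, over 12879 genes. Of the 41 members tested (Trem3 and Treml2 were too low), 0 passed at a Benjamini-Hochberg adjusted p under 0.05, against 143 genes or 1.11% of all tested. The count over all genes fell to 47 without replicate 1 and 52 without replicate 3, and the members' count was 0 without either. With an unadjusted p under 0.05 the count was 0 of 41, against 6.79% of all genes, and DESeq2 marked 0 members as dispersion outliers. The members with the smallest p were Lilra5 (edgeR adjusted p = 0.80, unadjusted 0.062) and Pirb (edgeR adjusted p = 0.81, unadjusted 0.065). With a common dispersion 1 member, Lilra5, passed.

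The median SD of log2 CPM was 0.0730 over the 41 members, against 0.130 over all genes tested. At a mean of 10 CPM or more the medians were 0.0670 over 36 members and 0.0931 over 8554 genes. Abundance above that floor was not matched. By median level the whole set stood higher than the genes tested that had a length (89.5 against 17.9 TPM). Dok3 had the smallest spread of the members, an SD of 0.0118, followed by Sirpa at 0.0181. The widest after Lilra5 were the low genes Fgr (0.470) and Treml4 (0.438), and Fgr was lowest in replicate 4 and Treml4 in replicate 1. In replicates 1 to 4, 14, 12, 7 and 8 of the 41 members were highest and 10, 11, 10 and 10 lowest, while 29.7%, 23.9%, 24.02% and 22.4% of all genes tested were highest and 30.7%, 22.4%, 25.1% and 21.8% lowest. Replicate 1 had the lowest Tyrobp and the lowest summed TPM of the set. These values are not separate, because Tyrobp is the largest single part of that sum. By role, only the summed ITAM adaptors were lowest in replicate 1. In the other pathway lists 0 of the 52 genes tested passed in edgeR (6 at an unadjusted p under 0.05), and DESeq2 marked 0 of them.

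**Figure D3:**
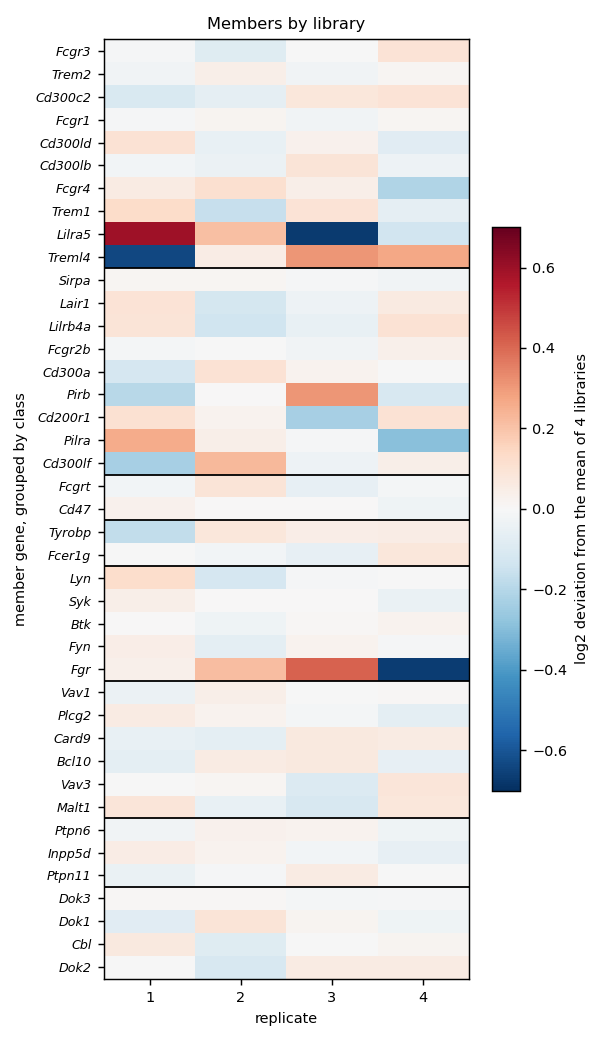
Log2 deviation of each of the 41 tested members (rows, grouped by role) from its mean over the 4 libraries (columns), after TMM scaling; red is higher and blue lower. Lilra5 is highest in replicate 1 (0.59) and lowest in replicate 3 (-0.67), and most rows are pale.

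**Figure D4:**
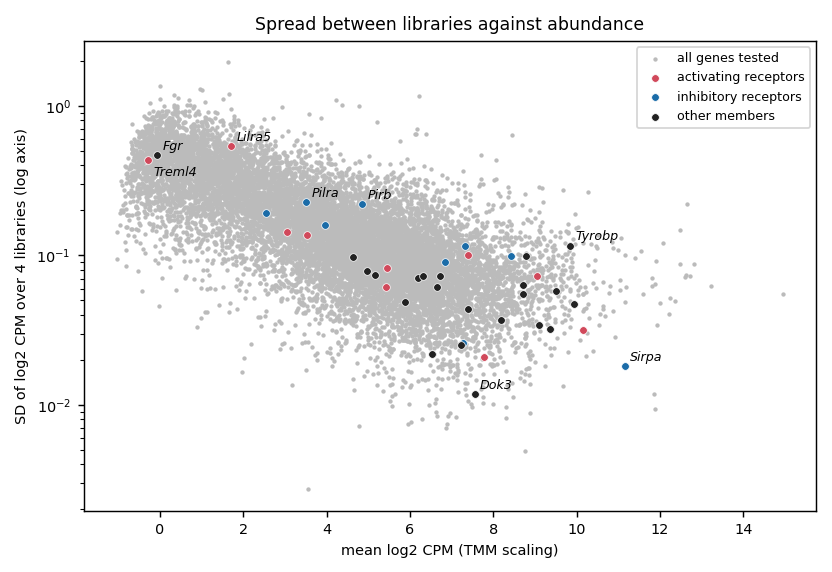
SD of log2 CPM over the 4 libraries (log axis) against mean log2 CPM for all 12879 genes tested (grey) and the 41 tested members (coloured by role). Members lie within the grey cloud, from Lilra5 (0.537) down to Dok3 (0.0118).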

How the data were processed

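RNA of 4 libraries of sorted cultured microglia was sequenced. The deposited files hold raw whole-number counts by gene symbol, 1 file a library. HTSeq 0.11.2, SAMtools 1.16.1 and STAR 2.7.10a, with build mm39 (GRCm39), are named per the submitters' processing notes. Annotation, strand setting and overlap mode were not given in the sources used here. In all, 5 summary lines, 11.8% ± 0.159 of reads, were left out.

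CPM and TPM were computed here from the deposited counts, with lengths of merged exons from GENCODE M21 (GRCm38, used for lengths and exon overlap, with no coordinates taken), matched by symbol for 43 of 43 members and 98.8% of counts. Merged exons overstate length where long isoforms are annotated but little used; principal transcripts (APPRIS) and other lengths were alternatives. Balances were taken per library. Ratios of single genes were tested by exact sign-flip permutation over libraries, two-sided. Spread between libraries was tested in edgeR 4.0.16 (R 4.3.3) with TMM, filterByExpr and trended dispersion. The deviance was set against chi-square with 3 degrees of freedom, with Benjamini-Hochberg adjustment. The procedure was also run on simulated counts drawn with a common dispersion for all genes, which cannot give the rate of false calls in these data. DESeq2 1.42.0 was an alternative.

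The members and lists were chosen with earlier results of these data known. All members are accounted for; of other lists the 4 highest and the lowest genes are named, except some that are not reported here, and others were named after their values were seen. Named member values follow the rule of the 3 highest and the lowest of each role, those with an outlying library and those of the ratios, by library. The planned protein motif description was not run.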

Additional observations from a re-analysis of the deposited data

Results flagged for a closer look

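Of 62 values checked over the 4 libraries (43 genes, 11 balances and 8 summed groups), 7 had 1 library whose gap to its nearest neighbour exceeded Dixon's 95% critical value for 4 samples; chance alone flags about 1 in 20. Tyrobp was at 4136 TPM in replicate 1, below 4794 to 4899 in the others. Sirpa was at 1535 TPM in replicate 4, below 1579 to 1586. Fcgr4 was at 19.1 TPM in replicate 4, below 23.2 to 23.99. Fcgr2b was at 91.2 TPM in replicate 4, above 88.9 to 89.1, and Fcgrt at 170 TPM in replicate 2, above 156 to 158. Cd300lb was at 53.7 TPM in replicate 3, above 48.3 to 49.2. The log2 ratio of activating over inhibitory CD300 receptors was 2.51 in replicate 2, below 2.73 to 2.75. In the edgeR test of spread each of these 6 genes had an adjusted p of 0.9999.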

How the results depend on the processing

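No paired analysis was possible because all 4 libraries form 1 group. Leaving out each library in turn, no balance changed sign, and the range was -0.75 to -0.67 for the receptor medians, 0.37 to 0.40 for the receptor sums, 3.89 to 3.92 for Fc gamma receptors, 2.66 to 2.74 for CD300 receptors, 1.45 to 1.51 for adaptors over receptors and -0.37 to -0.30 for signalling genes (all log2). The 5 single gene ratios kept their direction under all alternatives run, with CPM values down to 1.78 (Fcgr3 over Fcgr2b), 0.33 (Tyrobp over Fcer1g) and 1.96 (Ptpn6 over Ptpn11). For the changes below other than those of length, which follow from the lengths used, the cause was not tested. On CPM without length the receptor medians differed by -1.42 and the balances were 2.30 for Fc gamma and 1.08 for CD300 receptors; the receptor sums (-0.53) and adaptors over receptors (-0.39) turned round, and the signalling difference was -0.10. With the longest transcript the receptor sums stood at 0.24, Fc gamma receptors at 3.48, adaptors at 1.55 and signalling, reversed, at 0.29. With the principal transcript, an alternative chosen after seeing the data, these were 0.90, 3.48, 0.67 and 0.31. A pseudocount of 10 gave 3.76 for Fc gamma and 2.55 for CD300 receptors. For the receptor medians, keeping members that reached 1 CPM in any library gave -0.55, means -0.25, leaving out Cd300lf and Cd300lb -1.26, counting the ITAM adaptors as activating -0.55, leaving out genes with close copies -0.11, and leaving out all with listed relatives -1.84; means gave 0.0307, reversed, for signalling. Leaving out Ptpn11 (added after seeing the data, as was the list of all relatives) gave -0.81 for signalling, -0.20 with the longest transcript and -0.16 with means. The count of members past the test of spread was 0 under all alternatives but a common dispersion (1). Over all genes, that dispersion gave 532 and leaving out 1 library 47 (replicate 1) to 118, with 52 without replicate 3. Low counts limit Trem3, Treml2, Treml4 and Fgr.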
